A study of Mus musculus with 10 samples.

Results

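The 9 genes of peroxisomal and omega fatty acid oxidation described here were measured in mouse liver: Pex11a, Ehhadh, Acaa1b, Acaa1a, Ech1, Decr2, Cyp4a14, Cyp4a10 and Aldh3a2. They were chosen with earlier results of these data known, and were found by gene symbol in the array's platform table. The brightest probe set stood for a gene. Of these 9 genes, 8 had a probe set of their own among the 13942 genes tested. Cyp4a10 was measured only by probe sets that the platform table also assigns to its paralogues Cyp4a31 or Cyp4a32, so those probe sets are given under both names. The arrays came from livers of female BALB/cByJ mice, 3 months old, on Affymetrix Mouse Gene 2.1 ST. The groups were Pml knockout with food removed for 6 h (3 arrays), Pml wild type with food removed for 6 h (3), Pml knockout fed ad libitum (2) and Pml wild type fed ad libitum (2). Pml encodes the scaffold protein of PML nuclear bodies, and the design sets its knockout against wild type with and without a short fast. The sources used here do not give the knockout allele, the time of collection or whether each array is a separate animal, so the p values measure only the spread between these samples, which may be technical.

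Peroxisomes shorten very long chain and dicarboxylic fatty acids that mitochondria handle poorly. Each round begins with an oxidation, a bifunctional enzyme hydrates and dehydrogenates the product, and a thiolase cleaves off acetyl-CoA. Omega oxidation feeds this route: CYP4A enzymes of the endoplasmic reticulum hydroxylate the far end of the chain, and alcohol and aldehyde dehydrogenases turn it into a dicarboxylic acid. In rodent liver both routes are classical targets of the fatty acid receptor PPARα, which pairs with RXR and is known for its role in fasting.

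A few facts of the whole series touch the results. Levels are given as normalized intensity units on the linear scale of the deposited table, and changes as differences of log2 values, each with its standard error (SE) from a limma fit to all 10 arrays; a gene was called at a p value under 0.05 after Benjamini-Hochberg adjustment over all genes tested. Levels of different probe sets are not comparable with one another. All 110 values of the 11 probe sets that carry the 9 genes lay above the array median (43.5 to 47.5 units). Pml was lower in knockout after the fast (log2 difference -1.60, SE 0.18, adjusted p = 0.00433) and in the fed state (-1.63, SE 0.22, adjusted p = 0.0398). The fed call of Pml was lost in each of 10 omissions of 1 array (-1.88 to -1.38, adjusted p between 0.0573 and 0.258), and the fasted call without fasted knockout replicates 1 and 2 (-1.65, adjusted p = 0.0692). The fasted knockout arrays did not resemble each other in clock genes: the log2 intensity of Arntl, which encodes the clock activator BMAL1, was 4.60, 4.53 and 8.87 in replicates 1, 2 and 3, against 9.29, 9.04 and 9.16 in fasted wild type, 5.72 and 6.02 in fed knockout and 7.50 and 7.10 in fed wild type. Clock genes also differed with the fast in wild type: of 11 tested, limma called 3 higher and 2 lower. Dbp was lower there (log2 difference -3.11, SE 0.96, adjusted p = 0.0455), and Arntl was not called (1.87, adjusted p = 0.237). Dbp measured 67.1, 95.4 and 99.9 units in fasted wild type, against 723 and 766 units in fed wild type. It measured 1058, 892 and 63.8 units in fasted knockout replicates 1, 2 and 3, and 943 and 1038 units in fed knockout. Hepatocyte markers (7 of 7 tested) averaged between 12.12 and 12.24 on the log2 scale over all arrays, so the labelled tissue carried its defining transcripts.

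**Figure D1:**
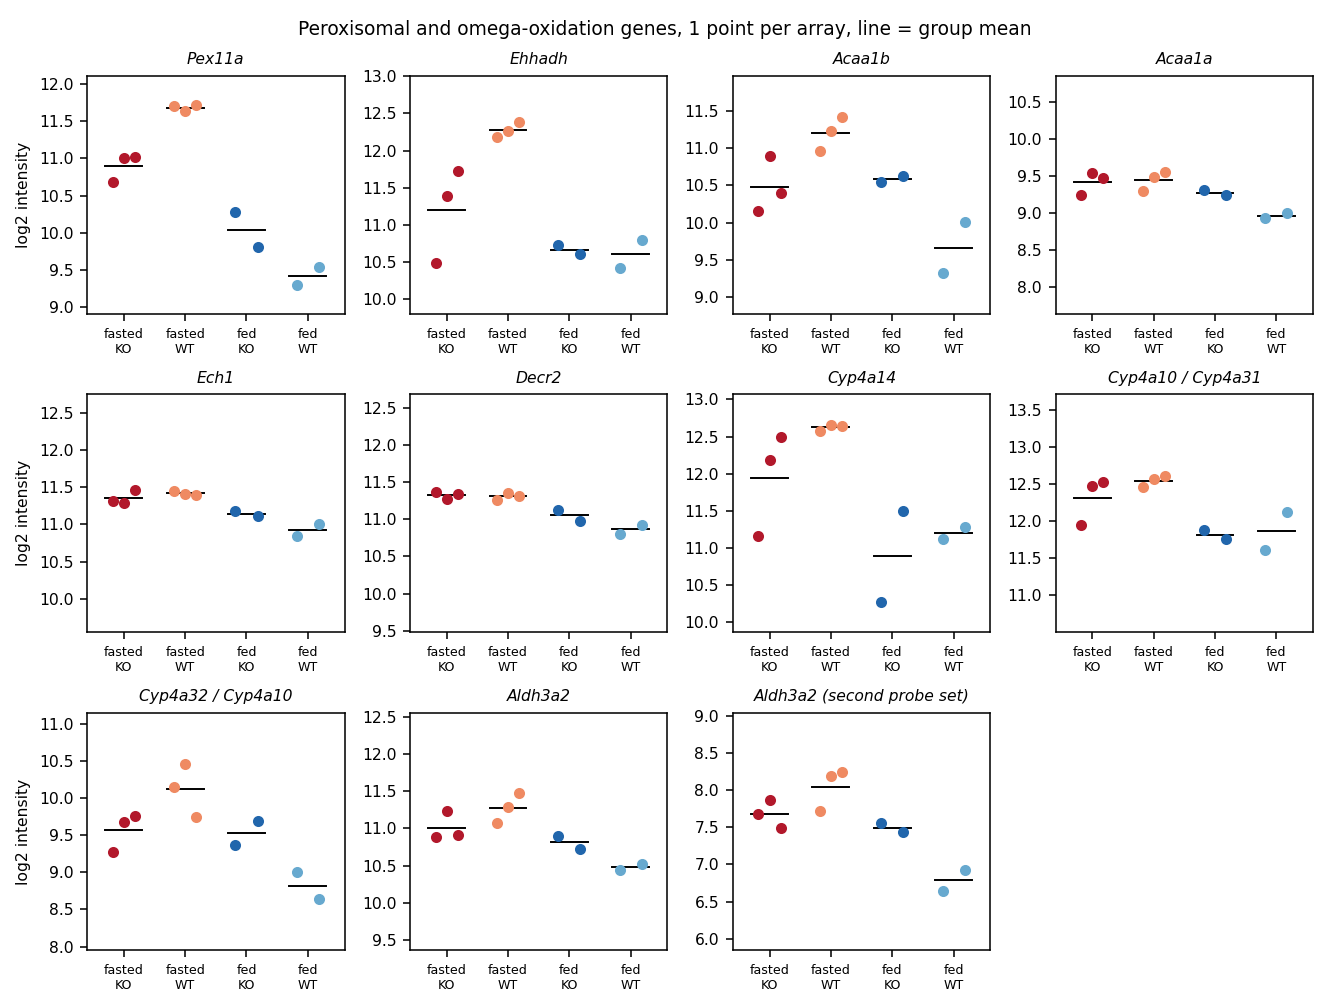
Log2 intensity of the 11 probe sets of the 9 genes (y axis, the same span in every panel, each centred on its own values), with 1 point per array and a line at the group mean, for fasted knockout, fasted wild type, fed knockout and fed wild type from left to right. Every fasted wild type array lay above both fed wild type arrays in each panel, and the fasted knockout arrays of Ehhadh and Cyp4a14 spread widest.

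In wild type liver all 8 genes that could be tested were called higher after the 6 h fast. Pex11a rose 4.79-fold, Ehhadh 3.18-fold, Acaa1b 2.92-fold and Cyp4a14 2.69-fold, while Aldh3a2 (1.73-fold), Ech1 (1.41-fold), Acaa1a (1.39-fold) and Decr2 (1.36-fold) rose less. Of all genes tested, 8.23% were called higher in this comparison. The median log2 difference was 1.11 over the 8 genes and -0.02 over all genes. The arrays of fasted and fed wild type did not overlap for any of the 8, which held upward for 23% of all genes. Since the genes were chosen with earlier results of these data known, these shares are not an independent test of the list. The clock gene Dbp also differed between fasted and fed wild type, and the part of clock state in these rises was not tested.

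Pex11a encodes a peroxisomal membrane protein that elongates peroxisomes before they divide. Its intensity was 3330.2, 3182 and 3357 units in fasted wild type, against 631 and 747 units in fed wild type. The 3 fasted arrays differed by little and stood far above both fed arrays (log2 difference 2.26, SE 0.16, adjusted p = 0.000218).

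Ehhadh encodes the bifunctional enzyme of the inducible peroxisomal pathway. It measured 4638, 4942 and 5361 units in fasted wild type and 1369 and 1786 units in fed wild type (1.67, SE 0.29, adjusted p = 0.00452). Acaa1b and Acaa1a encode the peroxisomal thiolases B and A, which carry out the last step. Acaa1b measured 1992, 2401 and 2751 units in fasted wild type, against 638 and 1028 units in fed wild type (1.54, SE 0.25, adjusted p = 0.00302). Acaa1a measured 629, 719 and 753 units in fasted wild type, against 488 and 513 units in fed wild type (0.48, SE 0.12, adjusted p = 0.0223). The fed wild type arrays lay further apart for Acaa1b than for Acaa1a.

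For Acaa1b, Acaa1a and Ehhadh, genes of the bifunctional and thiolase steps, the bases just before their start sites are shown. They are the 120 bases before the RefSeq start (GRCm38.p6), 5′ to 3′ on the strand of the gene, with the core of a CCAAT box on either strand (ATTGG or its reverse complement) in capitals.
Acaa1b: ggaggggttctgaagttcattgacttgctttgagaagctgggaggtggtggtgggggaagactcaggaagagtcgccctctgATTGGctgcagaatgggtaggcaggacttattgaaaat
Acaa1a: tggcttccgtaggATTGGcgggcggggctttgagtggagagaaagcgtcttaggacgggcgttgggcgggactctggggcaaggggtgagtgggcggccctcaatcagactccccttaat
Ehhadh: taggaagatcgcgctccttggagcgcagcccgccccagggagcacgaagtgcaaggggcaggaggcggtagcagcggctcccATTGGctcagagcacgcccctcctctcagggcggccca

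The stretch of Acaa1b lies at chr9:119157094-119157213 on the minus strand, that of Acaa1a at chr9:119341174-119341293 on the plus strand and that of Ehhadh at chr16:21787835-21787954 on the minus strand. In Acaa1b and Ehhadh the core began 38 bases before the start site, and in Acaa1a 107 bases before it. The core was picked out after these windows had been read. Within windows of 300 bases (250 before to 50 after the start) it occurred in 4 of the 7 genes with a window (Acaa1a, Acaa1b, Aldh3a2 and Ehhadh) and in 37.4% of all 32851 windows. The DR1 element that PPARα and RXR are known to bind, a direct repeat of AGGTCA with 1 base between, was searched on both strands and occurred in 0 of the 7 genes and in 0.0396% of all windows. Its looser form, with 1 base of each repeat free (AGGNCA), occurred in 0 of 7 genes and 0.381% of windows, and the single AGGTCA, which is part of the first element, in 0 of 7 genes and 16.3% of windows. A match or its lack describes only the letters of these windows. A link between the core or its position and the fasting change was not tested.

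Ech1 and Decr2 serve unsaturated fatty acids, Ech1 as a dienoyl-CoA isomerase and Decr2 as the peroxisomal dienoyl-CoA reductase. Ech1 measured 2798, 2721 and 2702 units in fasted wild type, against 1838 and 2056 units in fed wild type (0.50, SE 0.10, adjusted p = 0.00918). Decr2 measured 2453, 2622 and 2545 units in fasted wild type, against 1785 and 1943 units in fed wild type (0.45, SE 0.10, adjusted p = 0.0126). Both changes were small but the groups lay apart.

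On the omega side, Cyp4a14, a fatty acid omega-hydroxylase, measured 6125, 6469 and 6418 units in fasted wild type, against 2236 and 2487 units in fed wild type (1.43, SE 0.40, adjusted p = 0.0308). The probe set shared by Cyp4a10 and Cyp4a31 measured 5634, 6063 and 6226 units in fasted wild type, against 3117 and 4468 units in fed wild type. Its groups lay apart, but in a fit of all 23492 probe sets above the filter it was not called (0.68, SE 0.21, adjusted p = 0.0659). The probe set shared by Cyp4a32 and Cyp4a10 measured 1134, 1411 and 858 units in fasted wild type, against 515 and 397 units in fed wild type, and was called in that fit (1.30, SE 0.24, adjusted p = 0.0110). Cyp4a14, Cyp4a10 and Cyp4a31 follow each other on chromosome 4 with 0 protein-coding genes between neighbours, and signal can be shared among such paralogues.

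Aldh3a2 encodes fatty aldehyde dehydrogenase, which oxidises the aldehydes that omega oxidation forms. It measured 2160.0, 2496 and 2841 units in fasted wild type, against 1395 and 1473 units in fed wild type (0.79, SE 0.15, adjusted p = 0.00599). A dimmer probe set of the same gene changed in the same direction by more (1.26, SE 0.19, adjusted p = 0.00492 in the fit of probe sets), so the size of the change depends on the probe set.

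The number of genes called fell to 4 of 8 without fed wild type replicate 1, when Acaa1a (adjusted p = 0.128), Cyp4a14 (0.146), Decr2 (0.0993) and Ech1 (0.0820) were lost. Cyp4a14 also lost its call without any 1 of the other 4 wild type arrays (adjusted p between 0.0641 and 0.0920), and Acaa1a without fed wild type replicate 2 (0.0691) or fasted wild type replicate 2 (0.0636) or 3 (0.0703); the probe set shared by Cyp4a32 and Cyp4a10 lost it without fed wild type replicate 2 (0.0708).

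In Pml knockout liver 1 of the 8 genes was called after the fast. Pex11a rose 1.81-fold (log2 difference 0.86, SE 0.16, adjusted p = 0.0436), with 1639.9, 2056 and 2068 units in fasted knockout and 1242 and 892 units in fed knockout. Of all genes tested, 0.811% were called higher in this comparison. The median log2 difference was 0.24 over the 8 genes and 0.01 over all genes.

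The other 7 genes did not pass the test. Ehhadh measured 1442, 2678 and 3393 units in fasted knockout and 1697 and 1555 units in fed knockout (0.54, SE 0.29, adjusted p = 0.357). Cyp4a14 measured 2289, 4661 and 5786 units in fasted knockout and 1242 and 2896 units in fed knockout (1.06, SE 0.40, adjusted p = 0.191). In both genes the first fasted knockout array stood no higher than the higher fed array and the other two lay above it.

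Acaa1b measured 1142, 1901 and 1349 units in fasted knockout and 1488 and 1587 units in fed knockout, so that the fed arrays lay within the fasted range (-0.10, SE 0.25, adjusted p = 0.862). The 95% interval of this difference, -0.66 to 0.46, lay below that of wild type, 0.99 to 2.10. Aldh3a2 measured 1898, 2400.3 and 1926 units in fasted knockout and 1918 and 1695 units in fed knockout (0.19, SE 0.15, adjusted p = 0.514). Acaa1a measured 605, 743 and 708 units in fasted knockout and 633 and 606 units in fed knockout (0.14, SE 0.12, adjusted p = 0.581). The fed values of these 2 genes also fell inside or next to the fasted ones.

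Decr2 and Ech1 showed small differences without overlap. Decr2 measured 2629.8, 2470.3 and 2599 units in fasted knockout and 2230.4 and 2022 units in fed knockout (0.27, SE 0.10, adjusted p = 0.183). Ech1 measured 2550.3, 2505 and 2814 units in fasted knockout and 2325 and 2208 units in fed knockout (0.21, SE 0.10, adjusted p = 0.304). With Pex11a they made 3 of 8 genes whose fasted arrays all lay above the fed ones, as did 18.3% of all genes. The shared probe set of Cyp4a10 and Cyp4a31 (0.50, SE 0.21, adjusted p = 0.262) also lay apart between the groups, and that of Cyp4a32 and Cyp4a10 did not (0.05, SE 0.24, adjusted p = 0.949).

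The call of Pex11a was lost without either fed knockout array (adjusted p = 0.0645 without replicate 1 and 0.267 without replicate 2), without fasted knockout replicate 2 (0.0748) or 3 (0.102), or without any 1 of the fasted wild type arrays (0.0596 to 0.0640). Without fasted knockout replicates 1 and 2, the pair with low Arntl, Ehhadh was the 1 gene called (1.06, adjusted p = 0.0487) and Pex11a was not (0.97, adjusted p = 0.0672).

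**Figure D2:**
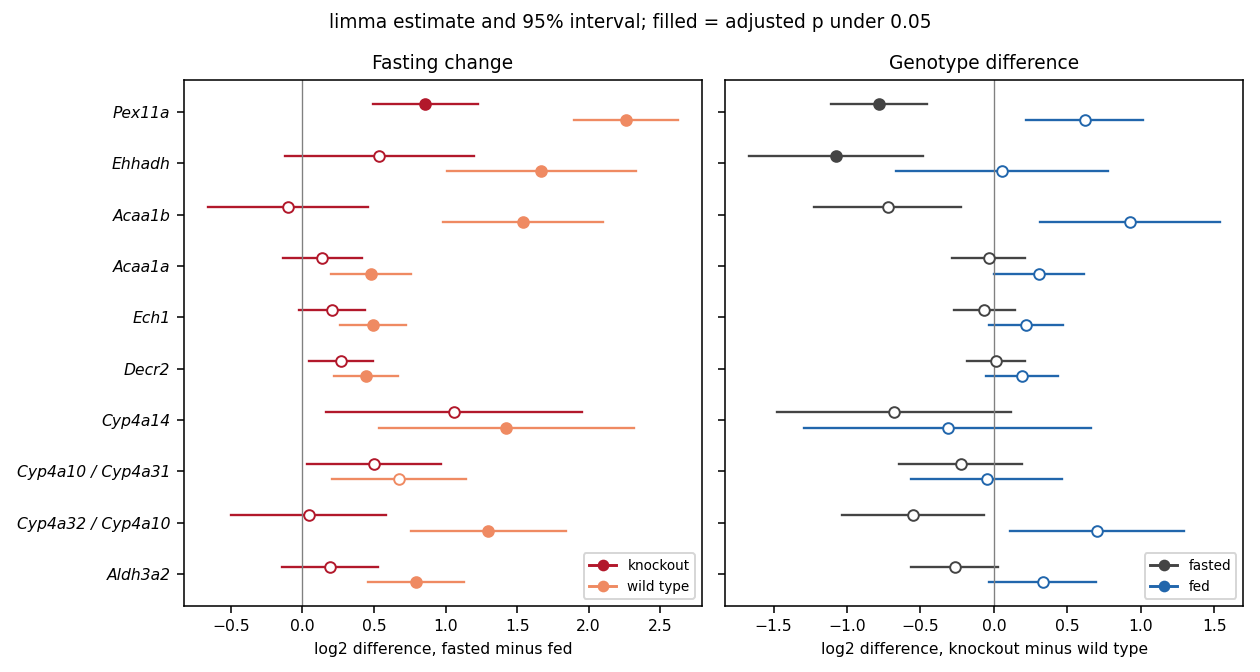
Log2 differences (x axis) of 8 genes and the 2 shared Cyp4a probe sets, with 95% intervals from limma: on the left fasted minus fed in knockout and in wild type, on the right knockout minus wild type in the fasted and in the fed state. Filled points passed an adjusted p of 0.05. The fasting change of Acaa1b was -0.10 in knockout and 1.54 in wild type, and Ehhadh and Pex11a were lower in fasted knockout than in fasted wild type.

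The fasting change itself differed between the genotypes for 2 of the 8 genes by the interaction test. It was smaller in knockout by 1.65 for Acaa1b (interaction -1.65, SE 0.35, adjusted p = 0.0488) and by 1.40 for Pex11a (-1.40, SE 0.23, adjusted p = 0.0278). Of all genes tested, 0.789% were called negative in the interaction. The interaction estimate was negative for all 8 genes, with a median of -0.48 against 0.04 over all genes. This common sign rests on shared arrays and is not 8 separate observations.

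Ehhadh (-1.13, SE 0.42, adjusted p = 0.174) and Aldh3a2 (-0.60, SE 0.21, adjusted p = 0.159) had estimates that did not pass. Cyp4a14 had an interaction of -0.37 with a 95% interval of -1.63 to 0.89, which leaves room for a larger or a smaller response in knockout. Decr2 (-0.17, interval -0.49 to 0.14), Ech1 (-0.29, interval -0.61 to 0.04) and Acaa1a (-0.34, interval -0.73 to 0.05) had narrower intervals that held 0. The Cyp4a32 and Cyp4a10 probe set had -1.25 (SE 0.34, adjusted p = 0.140), and the Cyp4a10 and Cyp4a31 probe set -0.18 (SE 0.29, adjusted p = 0.805). For 5 of 8 genes, namely Acaa1b, Pex11a, Ehhadh, Aldh3a2 and Ech1, every pair of 1 fasted and 1 fed knockout array differed by less than every such pair of wild type arrays, as was true downward of 8.9% of all genes.

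Both interaction calls depended on single arrays. That of Acaa1b lay between -1.77 and -1.30 with an adjusted p of 0.0647 to 0.136 in 8 omissions of 1 array that lost it; the 2 that kept it were those of fed wild type replicate 2 and fasted knockout replicate 2. That of Pex11a was lost without fasted knockout replicate 1 (adjusted p = 0.0587), either fed knockout array (0.0899 and 0.0721), any 1 fasted wild type array (0.0541 to 0.0618) or fed wild type replicate 1 (0.0800).

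In the fed state 0 of the 8 genes differed between knockout and wild type by limma, and 3 had an unadjusted p under 0.05 (Pex11a, Acaa1b and Acaa1a). Such a p was found for 1203 of all 13942 genes. Of all genes tested, 0.0861% were called in either direction. For 6 of the 8 genes both fed knockout arrays lay above both fed wild type arrays, as did 16.2% of all genes, and the median log2 difference was 0.26 against -0.02 over all genes.

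Acaa1b measured 1488 and 1587 units in fed knockout, against 638 and 1028 units in fed wild type (0.92, SE 0.27, adjusted p = 0.350). Pex11a measured 1242 and 892 units in fed knockout, against 631 and 747 units in fed wild type (0.62, SE 0.18, adjusted p = 0.348). Fed knockout levels of these genes therefore stood between the fed and fasted levels of wild type. Aldh3a2 (0.33, interval -0.04 to 0.70), Acaa1a (0.31, interval 0.003 to 0.61), Ech1 (0.22, interval -0.03 to 0.47) and Decr2 (0.19, interval -0.06 to 0.43) made up the 6.

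Ehhadh and Cyp4a14 stood outside this pattern. Ehhadh measured 1697 and 1555 units in fed knockout, against 1369 and 1786 units in fed wild type (0.06, interval -0.67 to 0.78). Cyp4a14 measured 1242 and 2896 units in fed knockout, against 2236 and 2487 units in fed wild type (-0.31, interval -1.29 to 0.66). In both, the arrays of 1 genotype enclosed those of the other.

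Ppara, the gene of the receptor PPARα, had 1433 and 1423 units in fed knockout, against 1139 and 883 units in fed wild type, and was not called (0.51, SE 0.18, adjusted p = 0.431). Acaa1a and Acaa1b lie on chromosome 9, as does Pml, with 533 protein-coding genes between Pml and Acaa1b. The part of linked sequence from the line in which Pml was altered was not tested.

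After the fast 2 of the 8 genes were lower in knockout than in wild type and 0 were higher. Ehhadh was 2.11-fold lower (log2 difference -1.08, SE 0.26, adjusted p = 0.0325), with 1442, 2678 and 3393 units in fasted knockout and 4638, 4942 and 5361 units in fasted wild type. Pex11a was 1.72-fold lower (-0.78, SE 0.15, adjusted p = 0.0132), with 1639.9, 2056 and 2068 units in fasted knockout and 3330.2, 3182 and 3357 units in fasted wild type. Of all genes tested, 4.43% were called lower in this comparison. The median log2 difference was -0.47 over the 8 genes and 0.01 over all genes.

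Acaa1b (-0.72, SE 0.22, adjusted p = 0.0660) and Cyp4a14 (-0.68, SE 0.36, adjusted p = 0.242) had fasted knockout arrays that all lay below those of wild type without passing the test. With Ehhadh and Pex11a they made 4 of 8 genes, where 15.1% of all genes lay apart in that direction. Aldh3a2 overlapped between the genotypes (-0.27, interval -0.57 to 0.03). Acaa1a, Ech1 and Decr2 had differences of -0.03 (interval -0.28 to 0.21), -0.06 (interval -0.27 to 0.14) and 0.01 (interval -0.18 to 0.21). For these 3 genes a difference as large as that of Ehhadh lay outside the intervals. Their whole fasting change in wild type was only 0.48, 0.50 and 0.45, so the intervals still hold a loss of part of it.

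Ehhadh lost its call without fasted wild type replicate 1 (adjusted p = 0.0721), 2 (0.0744) or 3 (0.0995), and Pex11a without fasted knockout replicate 1 (-0.67, adjusted p = 0.0506). Acaa1b was called without fasted knockout replicate 2 (-0.93, adjusted p = 0.0351) or without either fed wild type array (0.0493 each), and with the replicate number as a block (-0.72, adjusted p = 0.0373). Without the 2 fasted knockout arrays with low Arntl the differences of Ehhadh (-0.55, adjusted p = 0.169) and Pex11a (-0.67, adjusted p = 0.149) were not called, with 1 fasted knockout array left and its spread taken from the other groups.

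The fasted knockout arrays differed among themselves, and not in the same order for every gene. Set on a scale where the fed wild type mean is 0% and the fasted wild type mean is 100% (log2 scale), Ehhadh reached -7.02%, 46.5% and 67% in replicates 1, 2 and 3. Cyp4a14 reached -3.00%, 68.9% and 90.8%. Pex11a reached 55.6% in replicate 1 and 70.4% in replicate 3, with replicate 2 next to the last. Replicate 1 was thus the lowest array for these genes, as it was for 6 of the 8.

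Acaa1b reached 32.2%, 79.7% and 47.7%, and Aldh3a2 51.1%, 93.8% and 53.7%. For these genes replicate 2 stood apart at the top. Acaa1a reached 56.6%, 118% and 104%, Decr2 111%, 91.1% and 107%, and Ech1 79.1%, 73.9% and 108%. The last 2 were lowest in replicate 2, on a wild type distance of at most 0.50 log2 units. The clock genes divided replicates 1 and 2 from replicate 3, which was not the division seen in Ehhadh, Cyp4a14 and Pex11a; the part of clock state in these levels was not tested.

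**Figure D3:**
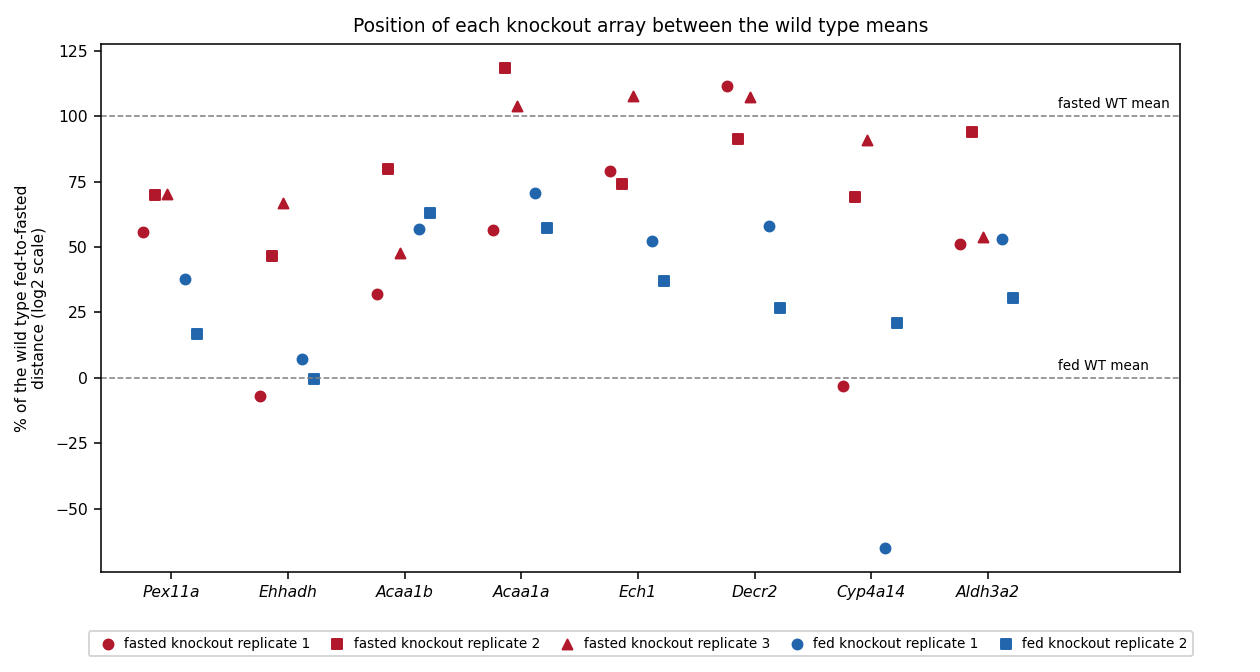
Position of each knockout array between the wild type group means, as a percentage of the wild type distance from fed (0) to fasted (100) on the log2 scale, for 8 genes. Fasted knockout arrays are red and fed knockout arrays blue, with the replicate given by the marker; Ehhadh and Cyp4a14 ran from about the fed wild type level in replicate 1 to 67% and 90.8% in replicate 3.

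Fed knockout arrays stood at 37.9% and 16.7% for Pex11a, 56.9% and 62.9% for Acaa1b, and 7.09% and -0.46% for Ehhadh on the same scale. The lowest of all was Cyp4a14 in fed knockout replicate 1, at -64.9%, with 20.8% in replicate 2. The thiolase gene Acaa1b was the 1 gene of the 8 whose fed knockout mean exceeded its fasted knockout mean (10.59 ± 0.07, SD, n = 2, in fed knockout, against 10.48 ± 0.37, SD, n = 3, in fasted knockout on the log2 scale); without fasted knockout replicate 1 this turned to a fasting change of 0.06.

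The mean standardised level of the 8 genes was set against other tested genes by Pearson correlation over the 10 arrays, which fall into fed and fasted groups. The 5 genes most like it were Acot1 (r = 0.99), a cytosolic acyl-CoA thioesterase, Crat (0.99), carnitine acetyltransferase, Decr1 (0.99), the mitochondrial counterpart of Decr2, Cpt2 (0.98) and Slc25a20 (0.98), both of the mitochondrial carnitine shuttle. Among 12256 genes ranked, 188 had r over 0.9. The ranking left out genes with Gm, Rik, Mir, Snor, Olfr, Vmn, LOC, BC, AI or AW symbols. Crat measured 937, 1652 and 1799 units in fasted knockout, 2072, 2403 and 2874 units in fasted wild type, 791 and 777 units in fed knockout, and 440 and 717 units in fed wild type. Its first fasted knockout array was the lowest of that group but lay above both fed knockout arrays. Crat was picked for its correlation over these arrays, so a shared order of arrays is no separate support.

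Of 40 other genes of peroxisomal oxidation and metabolism tested, 11 rose and 6 fell with the fast in wild type (median log2 difference 0.02, against -0.02 over all genes), where 8.23% of all genes were called higher and 13.2% lower. Those that rose included Acot3 (2.31), a peroxisomal acyl-CoA thioesterase, Crat (2.11), Acot4 (1.36), a thioesterase for dicarboxylyl-CoA, and Eci2 (0.78), an enoyl-CoA isomerase. Those that fell included Nudt7 (-1.25), a CoA diphosphatase, Acox3 (-0.70), an oxidase for branched chains, and Hao1 (-0.63), glycolate oxidase.

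Of 15 peroxins and division genes tested, 4 rose and 2 fell in fasted wild type, with a median of -0.02. Pex13 (0.70) and Pex14 (0.67) of the docking complex, Pex19 (0.51), a chaperone of membrane proteins, and Pex16 (0.35) rose, while Pex7 (-0.74), the import receptor that carries thiolase, and Fis1 (-0.40) of the fission machinery fell. Of 19 other omega oxidation genes, 2 rose (Cyp4f17 1.44 and the alcohol dehydrogenase Adh7 1.18) and 3 fell (Adh4 -1.94, Aldh3b1 -0.58 and Cyp4f14 -0.49). The counts that fell in these 3 lists, and the omega count that rose, were near the shares over all genes, so nothing is read from them. Without single arrays between 3 and 6 peroxins and between 2 and 6 omega oxidation genes were called.

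Of 18 genes of PPARα and its partners, 3 rose and 1 fell in fasted wild type: Lpin1 (2.00), a coactivator of PPARα that is also a phosphatidate phosphatase, Ppara (0.63) and the Mediator subunit gene Med1 (0.33) rose, and Nr1h3 (-0.35) fell. Leaving out 1 array gave between 1 and 4. Over all genes 8.23% were called higher and 13.2% lower, and nothing is read from the counts of these 18 genes. Of 26 targets of PPARα outside the peroxisome, 23 rose and 0 fell (median 1.04); this list was chosen with earlier results of these data known.

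In knockout, the fast gave 0 calls by limma among the 40 peroxisomal, 19 omega, 15 peroxin and 18 partner genes, where 5, 2, 4 and 4 had an unadjusted p under 0.05. Such a p was found for 2680 of all 13942 genes, and 0.811% of all genes were called higher. Nothing is read from the counts in these 4 lists. Of the 26 targets outside the peroxisome 2 rose, with a median of 0.48 over the list, and between 0 and 6 were called when 1 array was left out. In the interaction, where 1.32% of all genes were called positive and 0.789% negative, the calls among these lists were Acot3 (-1.86) and the D-amino acid oxidase gene Dao (1.10) among peroxisomal genes, Lpin1 (-1.98) and Ppargc1b (-1.17) among partners, and Acot2 (-2.52) and Angptl4 (-2.02) among targets. Dao lay above the array median on 2 of the 10 arrays. Leaving out 1 array left between 0 and 1 peroxisomal, 0 and 1 partner and 0 and 7 target genes called there.

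Between the genotypes after the fast, Pex7 was higher in knockout (0.43, SE 0.09, adjusted p = 0.0191) and Pex13 lower (-0.51, SE 0.12, adjusted p = 0.0308). Adh4 (1.08, adjusted p = 0.0105), Acox3 (0.39, adjusted p = 0.0385) and Pxmp2 (0.56, adjusted p = 0.0112), a peroxisomal membrane channel, were higher too. Cyp4f17 (-1.06, adjusted p = 0.0246) and Ephx2 (-0.39, adjusted p = 0.0337), an epoxide hydrolase, were lower. Pparg was higher (0.78) and Ppard (-0.81) and Ppargc1b (-0.60) lower. Over all genes 6.68% were called higher and 4.43% lower, and nothing is read from the 1 or 2 genes per direction called in these 4 lists. This comparison and the fast in wild type share the fasted wild type arrays. Of the targets outside the peroxisome 7 of 26 were lower and 0 higher. Leaving out 1 array gave between 1 and 5 peroxisomal, 1 and 2 omega, 0 and 3 peroxin, 0 and 3 partner and 2 and 9 target genes, and without fasted knockout replicates 1 and 2 limma called 0 of each. In the fed state 1 of these 118 listed genes was called, Txnip (1.47, adjusted p = 0.0398), and between 0 and 1 were called when 1 array was left out.

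**Figure D4:**
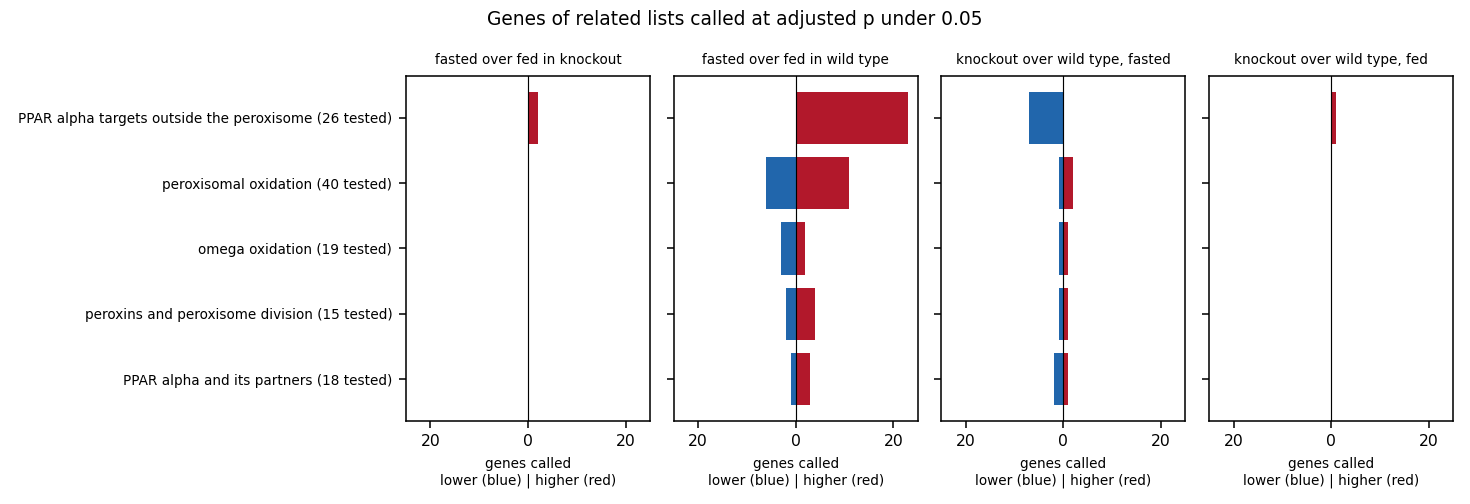
Number of genes called higher (red) or lower (blue) at an adjusted p under 0.05 in 5 related lists, for fasted over fed in knockout, fasted over fed in wild type, knockout over wild type after the fast and knockout over wild type in the fed state. In fasted wild type 23 of 26 targets of PPARα outside the peroxisome rose, and 11 of 40 peroxisomal genes rose while 6 fell. Over all genes 8.23% were called higher and 13.2% lower there. The lists were chosen with earlier results of these data known.

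Markers of other cells and zones were set beside these results, since in bulk tissue fewer cells of a type and less RNA per cell cannot be told apart. Pericentral hepatocyte markers, of the zone in which CYP4A enzymes are known to be enriched, had a mean log2 level of 9.99 to 10.14 in fasted knockout, 9.54 to 9.75 in fasted wild type, 9.70 to 10.14 in fed knockout and 9.98 to 10.04 in fed wild type (9 of 10 tested). Of this list 1 gene was called lower and 0 higher with the fast in wild type by limma (median 0.07, with 2 at an unadjusted p under 0.05), and Lgr5 lay above the array median in 0 of 3 fasted wild type arrays. Over all 13942 genes 13.2% were called lower, 8.23% were called higher and 4928 had an unadjusted p under 0.05. Macrophage markers averaged 8.51 to 8.70 in fasted knockout, 8.22 to 8.28 in fasted wild type, 8.41 to 8.49 in fed knockout and 8.31 to 8.67 in fed wild type (9 of 9 tested). Between the genotypes after the fast, limma called 3 macrophage markers higher in knockout and 0 lower (median 0.31). Of the pericentral markers 1 was called higher and 0 lower there, against 6.68% and 4.43% of all genes. Periportal hepatocyte markers averaged 9.88 to 10.26 in fasted knockout, 10.17 to 10.31 in fasted wild type, 10.54 to 10.57 in fed knockout and 10.54 to 10.67 in fed wild type (6 of 8 tested). Both fasted groups lay below both fed groups in this list. Sinusoidal endothelial markers averaged 8.92 to 9.39 in fasted knockout, 9.31 to 9.59 in fasted wild type, 9.18 to 9.25 in fed knockout and 9.23 to 9.26 in fed wild type (8 of 8 tested), so that fasted wild type lay above both fed groups. Stellate cell markers averaged 8.58 to 8.66 in fasted knockout, 8.66 to 8.79 in fasted wild type, 8.63 to 8.93 in fed knockout and 8.88 to 8.91 in fed wild type (6 of 7 tested). The fasted and fed wild type arrays did not overlap in that list. Adipocyte markers averaged 6.23 to 6.42 in fasted knockout, 6.31 to 6.41 in fasted wild type, 6.21 to 6.23 in fed knockout and 6.09 to 6.17 in fed wild type (3 of 6 tested). Cholangiocyte markers averaged 5.83 to 5.92 in fasted knockout, 5.88 to 6.14 in fasted wild type, 5.67 to 5.73 in fed knockout and 5.66 to 5.90 in fed wild type (4 of 6 tested). The part of these cells and zones in the results was not tested. Of 5 kidney markers, genes of another tissue known for CYP4A, 1 passed the filter on dim probe sets.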

How the data were processed

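Liver RNA of 10 mouse samples was hybridised to Affymetrix Mouse Gene 2.1 ST arrays, 1 array per sample, and groups were read from the sample titles. The deposited table holds normalized intensity values on a linear scale for 41345 probe sets; per the submitters' processing notes they were made with RMA in Affymetrix Expression Console, for which the sources used here give no version. Of the probe sets, 23521 carry 1 gene symbol in the platform table, 1814 several and 16010 none. Probe sets above the array's 50th percentile on at least 2 arrays were kept, the brightest standing for a gene, which left 13942 genes. Values were log2 transformed and fitted with limma 3.58.1 in R 4.3.3 as 4 group means over all 10 arrays, with 5 contrasts, Benjamini-Hochberg adjustment over all genes and a call at an adjusted p under 0.05. Shared Cyp4a probe sets and the second Aldh3a2 probe set were tested in a fit of every one of 23492 kept probe sets, an alternative chosen after seeing the data. The procedure was also run on simulated data with independent noise and changes placed only in fasted wild type. That run does not cover the spread among the fasted knockout arrays seen here. The 9 genes and the related lists were chosen with earlier results of these data known. Named genes are the 9, Pml, up to 4 called genes per list and direction with the largest change, and the 5 genes most correlated with the mean standardised level of the 8 genes tested; other genes named (clock genes, Ppara in each contrast) were chosen after their values were seen. Alternatives covered the filter, probe sets, scaling, log offset, moderation, weights, replicate block, the groups in the fit, and leaving out arrays. The labels do not say whether replicate numbers pair the samples. Correlations of deviations from the group mean between arrays of the same number lay between -0.17 and 0.11. Of 6 fasted samples, 3 correlated best with their own number in the other genotype. These values cannot exclude pairing, since the deviations in a group of 2 arrays mirror each other. The number of arrays, 2 or 3 a group, limits the precision.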

Additional observations from a re-analysis of the deposited data

Results flagged for a closer look

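The fasting change differed between knockout and wild type by the interaction test for Acaa1b (-1.65, SE 0.35, limma adjusted p = 0.0488), a peroxisomal thiolase gene. The change was -0.10 in knockout and 1.54 in wild type. The interaction call of Acaa1b was lost in 13 of 21 alternatives.

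Pex11a, a gene of peroxisome division, differed likewise (-1.40, SE 0.23, limma adjusted p = 0.0278), with a fasting change of 0.86 in knockout and 2.26 in wild type. In 3 of 3 fasted knockout arrays its level lay below every fasted wild type array. The interaction call of Pex11a was lost in 11 of 21 alternatives.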

How the results depend on the processing

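Of 872 values of the 8 genes tested under alternatives, 792 kept their direction and side of the threshold, 61 lost a call, 6 gained one and 13 turned sign. The cause was not tested. Of the 8 genes, the fast in wild type called 4 to 8 when 1 array was left out, with 1328 to 3075 genes called in all against 2990. In knockout the count of 1 became 0 with every kept probe set separate, without the filter, with the groups of the comparison alone and with the replicate block, and 0 to 1 when 1 array was left out; all genes called went to 24, 10, 16 and 0 in that order, to 452 with the stricter filter, 504 with trend and robust moderation and 1 to 170 when 1 array was left out, against 234. Between genotypes after the fast, the 2 genes became 1 with separate probe sets, without the filter, with the groups alone and with trend and robust moderation, 0 without fasted knockout replicates 1 and 2, and 1 to 3 when 1 array was left out; the 1549 genes became 1014, 654 and 934 under the first 3, 0 without the 2 replicates and 437 to 1501 when 1 array was left out. In the fed state 0 of 8 were called by limma throughout (3 at an unadjusted p under 0.05), and the 12 genes became 1 with separate probe sets, 4 without the filter, 0 with the groups alone, 0 with the replicate block, 24 with trend and robust moderation, 2 without the 2 replicates and 0 to 17 when 1 array was left out. In the interaction the 2 genes became 0 with separate probe sets, without the filter and without the 2 replicates, 1 with repeated quantile normalization, the replicate block or trend and robust moderation, and 0 to 2 when 1 array was left out; the 294 genes became 15, 4 and 0 under the first 3, 137 with the replicate block, 501 with the stricter filter, 520 with trend and robust moderation and 2 to 367 when 1 array was left out. Values turned sign as follows, where the shared Cyp4a probe sets and the second Aldh3a2 probe set are not part of the 872 values. Without fasted knockout replicates 1 and 2, knockout over wild type after the fast was 0.019 for Acaa1a and 0.038 for Ech1, the interaction was 0.18 for Cyp4a14 and 0.038 for the Cyp4a10 and Cyp4a31 probe set, and the fast in knockout was -0.0047 for the second Aldh3a2 probe set. Leaving out 1 array at a time gave, after the fast, knockout over wild type of -0.11 to 0.054 for Acaa1a and -0.010 to 0.042 for Decr2. In the fed state it gave -0.93 to 0.30 for Cyp4a14, -0.14 to 0.25 for Ehhadh and -0.31 to 0.21 for the Cyp4a10 and Cyp4a31 probe set. For the fast in knockout it gave -0.31 to 0.059 for Acaa1b and -0.12 to 0.21 for the Cyp4a32 and Cyp4a10 probe set. The interaction ranged from -0.98 to 0.24 for Cyp4a14 and from -0.44 to 0.083 for the Cyp4a10 and Cyp4a31 probe set.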
